A study of Mus musculus with 3 samples.

Results

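The genes examined encode the surface glycoproteins of platelets and proteins of platelet granules: Gp1ba, Gp1bb, Gp9, Gp5, Gp6, Vwf, Pf4, Ppbp and Treml1. They were chosen by name, as 9 of 21779 protein-coding genes. Their peaks of 5-hydroxymethylcytosine (5hmC, the oxidised form of 5-methylcytosine) were all distinct listed intervals whose midpoint lay in the gene span or within 5 kb of it. That rule gave 58 of the 208468 distinct peaks. The rule used no measured value, though the genes were chosen with earlier results of these data known.

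Platelets are shed by megakaryocytes of the bone marrow. Gp1ba, Gp1bb, Gp9 and Gp5 encode the chains of the GPIb-IX-V complex, the receptor through which platelets catch von Willebrand factor, the product of Vwf, on injured vessels. Gp6 encodes the collagen receptor of platelets. Pf4 and Ppbp encode CXC chemokines stored in alpha granules, and Treml1 a receptor held on the alpha granule membrane. 5hmC is made from methylated cytosine by TET enzymes, mostly at CG dinucleotides, and often lies within the bodies of genes that a tissue uses.

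The series has 3 samples of mouse bone marrow cells, 1 from normal marrow and 2 from NIDF-AML, an acute myeloid leukaemia. The mutations that induced it were FLT3-ITD, NPMc (of NPM1), IDH2/R140Q and DNMT3A/R882H. Strain, age and means of gene delivery are not stated in the labels. The peak lists of the 2 leukaemia samples were analysed, and all 223267 lines were identical in both. They were counted as 1 list, so no value has a replicate and no comparison of leukaemia with normal marrow was made. Both headers name index 4 as the treated library and differ in the control (index 5 and index 6), and neither they nor the labels tie an index to a sample. The values below therefore belong to the index 4 library, which may be leukaemia or normal marrow. What the control libraries held is not stated either, and each may be another 5hmC sample of the series. A listed peak may then mark more 5hmC in index 4 than in that control. In that case a gene without a listed peak may still carry 5hmC. A listed peak has a position and no height. Read depth is unknown, so a gene without a peak is one for which none was listed. Whole marrow was used, so fewer cells carrying the mark and less of the mark per cell cannot be told apart. Megakaryocytes are a small part of marrow, and whether these peaks come from them was not tested. All 8 neutrophil, 4 B cell, 5 erythroid and 4 T cell marker genes examined had a peak within 5 kb, as did 2 of 4 endothelial, 2 of 3 hepatocyte and 0 of 3 neuronal ones, and 73.1% of all protein-coding genes.

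The DNA before the start site is shown for 4 members, because the position of the peaks relative to it is described below. The sequences are RefSeq reference sequence of build GRCm38.p6, 250 bases each, read in the direction of the gene and ending at the base before the start site. Capitals mark CG dinucleotides and GATAA, the core letters bound by GATA factors, on either strand (TTATC is the same site on the other strand). Gp1ba, chr11:70638872-70639121, plus strand, and Gp9, chr6:87777820-87778069, plus strand, have few CG and hold GATAA. Gp5, chr16:30310782-30311031, minus strand, has no CG and lies between 2 close peaks. Gp1bb, chr16:18622404-18622653, minus strand, has the most CG of the members.
Gp1ba: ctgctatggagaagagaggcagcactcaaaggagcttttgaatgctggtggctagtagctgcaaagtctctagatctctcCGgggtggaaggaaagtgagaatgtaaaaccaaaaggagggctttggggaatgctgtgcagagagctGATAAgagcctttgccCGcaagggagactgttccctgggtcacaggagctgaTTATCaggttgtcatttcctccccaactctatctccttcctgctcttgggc
Gp9: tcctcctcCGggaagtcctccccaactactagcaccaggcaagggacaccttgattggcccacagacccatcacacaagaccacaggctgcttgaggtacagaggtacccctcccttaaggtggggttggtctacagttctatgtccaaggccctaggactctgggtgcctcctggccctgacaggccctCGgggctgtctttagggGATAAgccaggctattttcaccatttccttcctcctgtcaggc
Gp5: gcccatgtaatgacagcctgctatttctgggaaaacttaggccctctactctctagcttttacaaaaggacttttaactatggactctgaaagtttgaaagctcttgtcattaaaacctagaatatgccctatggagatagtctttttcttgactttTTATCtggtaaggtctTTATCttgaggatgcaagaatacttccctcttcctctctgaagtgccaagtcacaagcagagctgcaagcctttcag
Gp1bb: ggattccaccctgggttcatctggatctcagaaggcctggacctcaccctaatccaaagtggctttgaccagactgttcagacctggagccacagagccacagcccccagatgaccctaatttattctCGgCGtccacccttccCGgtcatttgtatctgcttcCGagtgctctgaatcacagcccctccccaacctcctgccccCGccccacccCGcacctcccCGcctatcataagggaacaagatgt

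All 9 genes had a peak within 5 kb, where 73.1% of all protein-coding genes had one. With the peak required in the gene span, 7 of the 9 did, where 66.6% of all protein-coding genes did. Gp1bb and Ppbp had no peak in the span. With flanks of 2 kb, 7 of the 9 had one, against 70.4% of all genes, and with flanks of 10 kb all 9 did, against 75.8%. The 9 genes are short, with a median span of 3.66 kb against 17.2 kb for all genes, and short genes had a peak less often: 44.9% of the 4977 genes under 5 kb had one within 5 kb. The members' median was 3 peaks per gene against 4 for all genes, and 0.165 peaks per kb of span and flanks against 0.106. Of the 9, 6 lay above the median density of all genes. No test was made, since there is 1 list and the genes are not replicates.

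Vwf alone held 32 of the 58 peaks (55.2%), and the other 8 genes shared 26. The counts ranged from 1 at Pf4 and Ppbp to 8 at Gp5 and 32 at Vwf. By density over the span and its 5 kb flanks the order was different. Gp5 was highest with 0.611 peaks per kb, followed by Gp1ba with 0.403, Gp9 with 0.293 and Vwf with 0.223. Gp1bb had 0.165, Treml1 0.116, Pf4 0.0913, Ppbp 0.0866 and Gp6 0.0667 peaks per kb. The exact Poisson 95% intervals of neighbours in this order overlap, and that of Gp5 (0.264 to 1.20) excludes the value of Gp6 but includes that of Gp1ba. The intervals reflect counting error alone, with each peak taken as independent. Over the span alone the order changed again, with Pf4 first at 1.05 peaks per kb from 1 peak in 0.949 kb. Gp1ba had 0.819, Gp5 0.646, Treml1 0.275, Gp9 0.274, Vwf 0.217 and Gp6 0.0857, and Gp1bb and Ppbp had 0.

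**Figure D1:**
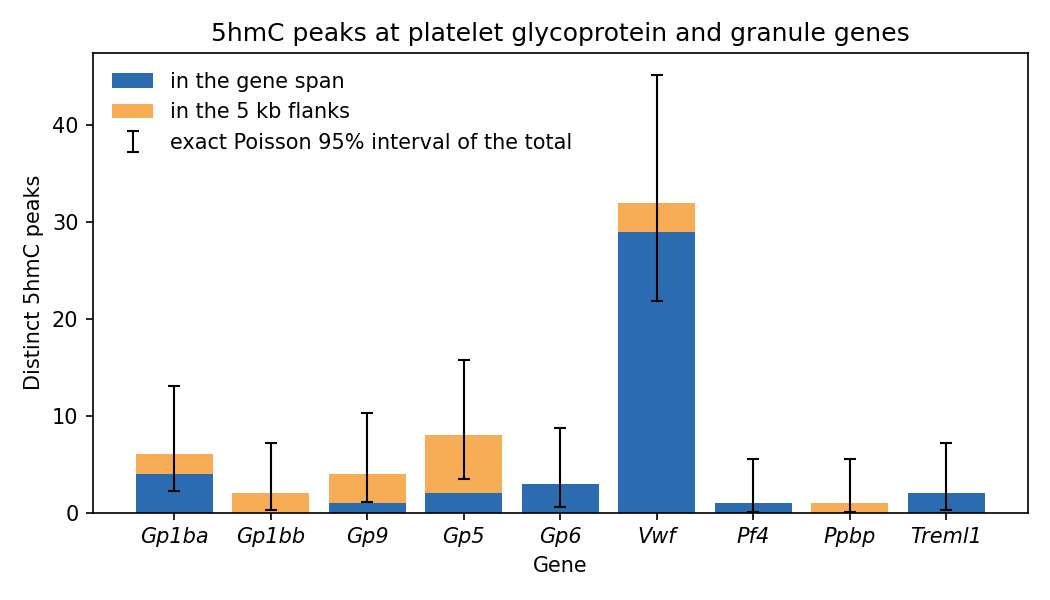
Distinct 5hmC peaks (vertical axis) at each of the 9 genes (horizontal axis), in the gene span and in the 5 kb flanks, with the exact Poisson 95% interval of the total. Vwf stands at 32 peaks, Gp5 follows with 8, and Gp1bb and Ppbp have flank peaks without one in the span.

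The GPIb-IX-V genes together held 20 peaks, 7 of them in a gene span. Gp1ba encodes the chain that binds von Willebrand factor, and lies on chromosome 11 (70639102 to 70643986). It had 4 peaks in its 4.88 kb: chr11:70639824-70639856, chr11:70640184-70640232, chr11:70641376-70641488 and chr11:70642272-70642288. Their midpoints lay 718, 1086, 2310 and 3158 bp after the start site, so they were spread along the gene. The other 2 peaks of Gp1ba lay past its end and inside Slc25a11, a mitochondrial carrier gene that begins 33 bp farther along, and cannot be assigned to one gene. Each of those 2 intervals is listed on 2 lines. The 4 peaks in the span also lay within 5 kb of Slc25a11, so by the 5 kb rule all 6 count for both genes. The total of 6 peaks exceeded that of 84.6% of genes under 5 kb.

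Gp5 encodes the chain that thrombin cleaves and lies on chromosome 16 (30307685 to 30310781), on the minus strand. It had 8 peaks (exact Poisson interval 3.45 to 15.8), more than 91.8% of genes under 5 kb. Only 2 were in the span, chr16:30308130-30308190 and chr16:30310248-30310300. A further 5 followed the end of the gene, at 153, 633, 1953, 3453 and 4781 bp past it, and 1 lay 549 bp before the start site. The run thus extended past the 3′ end over most of the flank, in sequence that no other protein-coding gene spans. The 2 span peaks, the one 153 bp past the end and the one before the start site also lay within 5 kb of Atp13a3. That gene lies 1.64 kb from Gp5 on the side of its start site and had 14 peaks within 5 kb, so these peaks count for both genes. The 8 peaks in 13.1 kb were denser than the next 100 kb on each side, with 0.611 against 0.175 peaks per kb, a ratio of 3.49 (exact interval of a ratio of Poisson rates 1.40 to 7.66). Among the 9 genes this was the only such interval wholly above 1.

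Gp9 encodes the small chain GPIX and lies on chromosome 6 (87776131 to 87779786). It had 1 peak in its span, chr6:87779000-87779032, at 946 bp after the start site, and 3 in the flanks. Those lay 3006 bp before the start site and 3034 and 3938 bp after it, none inside another protein-coding gene. The density of 0.293 peaks per kb was close to the 0.290 of the next 100 kb on each side. The neighbour Rab43, a small GTPase gene whose span begins 9.07 kb farther along, had 28 peaks within 5 kb, and Efcc1 on the other side had 13.

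Gp1bb encodes the chain joined to GPIb alpha by disulfide bonds and lies on chromosome 16 (18620319 to 18622403), on the minus strand. It had 0 peaks in its 2.08 kb and 2 in the flank, chr16:18624494-18624542 and chr16:18626986-18627034. Both lay before its start site, at 2115 and 4607 bp, and both lay inside Septin5, a gene of the septin cytoskeleton whose span overlaps that of Gp1bb. They therefore count for both genes, and each is listed on 2 lines. Septin5 held 4 peaks in its span. With flanks of 2 kb, Gp1bb had none.

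Gp6, the collagen receptor gene, lies on chromosome 7 (4362853 to 4397851) on the minus strand. With flanks counted, it had the lowest density of the 9. It had 3 peaks over 35 kb: chr7:4364426-4364464, chr7:4366361-4366480 and chr7:4393107-4393191. The last of these lay 4595 bp after the start site, and the other 2 lay near the far end of the gene, more than 31 kb from the start site. The stretch between the groups held no listed peak. Of the genes of 10 to 50 kb, 58.7% had more peaks than Gp6, and 81.5% had a peak within 5 kb. Its density of 0.0667 peaks per kb stood beside 0.190 in the next 100 kb on each side, a ratio of 0.351 (exact interval 0.0693 to 1.11).

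Vwf lies on chromosome 6 (125552948 to 125686679). Its product is the adhesive protein that GPIb alpha binds, and it is made by megakaryocytes and by endothelial cells. Vwf had 29 peaks in its 134 kb and 3 in the flank at its lower-coordinate end, together 32 (exact Poisson interval 21.9 to 45.2). That was more than at 83.8% of genes of 50 to 200 kb, of which 87.4% had a peak within 5 kb. The density of 0.223 peaks per kb was above that of 66.6% of all protein-coding genes. It was below the 0.390 of the next 100 kb on each side, with a ratio of 0.571 (exact interval 0.366 to 0.872). Those stretches held 78 peaks, of which 45 lay within 5 kb of 1 gene, Cd9. Vwf has no entry in the promoter table, so its peaks are given along the chromosome. The next genes were Cd9, a tetraspanin gene of platelets and other cells that ends 58.2 kb before Vwf and had 45 peaks within 5 kb, and Ano2, 3.74 kb past its other end, which had 2.

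The peaks of Vwf fell into 2 groups. The first 61.4 kb of the span held 21 peaks, or 0.342 per kb, up to chr6:125614344-125614392. No peak was listed in the next 40.5 kb. The last 31.8 kb, from chr6:125654920-125654936, held 8 peaks, or 0.252 per kb. The next longest peak-free stretch was 10.1 kb, and the median distance between neighbouring peaks was 1.69 kb. The densest 10 kb, from 40 to 50 kb into the span, held 8 peaks. The median listed width was 81 bp for the 24 peaks before the long stretch and 33 bp for the 8 after it, where positions are multiples of 8 bp. A long stretch of this kind was uncommon but not rare: of 256 genes of 100 to 200 kb with 20 to 40 peaks in the span, 18 (7.03%) had one at least as long, and the median was 20.2 kb. The stretch was singled out after its values were seen.

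**Figure D2:**
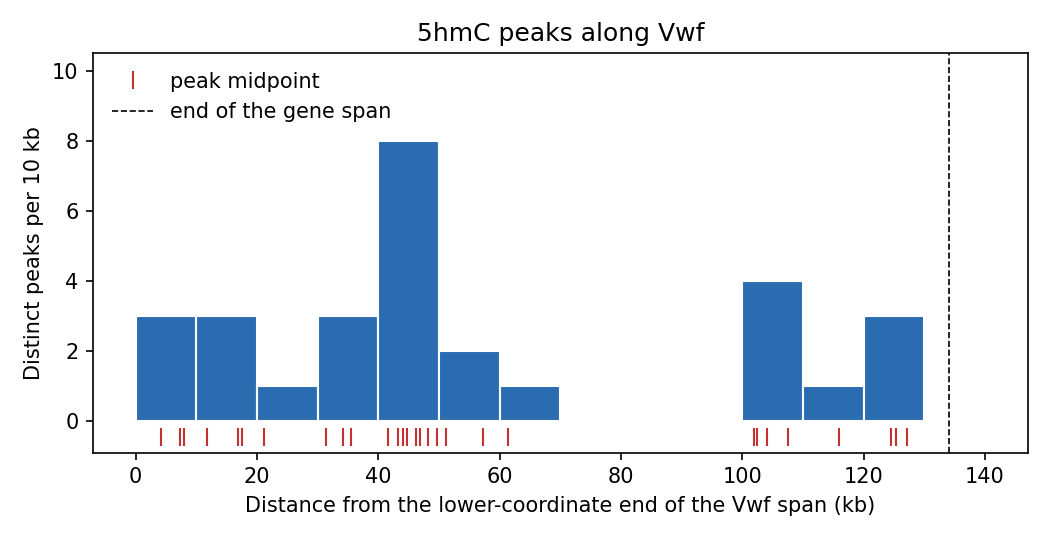
Distinct peaks per 10 kb (vertical axis) against distance from the lower-coordinate end of the Vwf span in kb (horizontal axis); ticks below the bars are single peak midpoints and the dashed line is the end of the span. The bars reach 8 between 40 and 50 kb, and the 3 bins from 70 to 100 kb are empty.

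The chemokine genes shared a single peak. Pf4 encodes platelet factor 4 and lies on chromosome 5 (90772435 to 90773383), and Ppbp, which encodes pro-platelet basic protein, lies 2.37 kb before it (90768518 to 90770063). The peak chr5:90772936-90772968 lay in Pf4, 517 bp after its start site, and 2889 bp past the end of Ppbp. It is thus counted for both, and Ppbp had none of its own. Of genes under 5 kb, 35.5% had more than 1 peak within 5 kb and 55.1% had none. The cluster of CXC chemokine genes around them was counted over Cxcl1, Cxcl2, Cxcl3, Cxcl5, Cxcl15, Pf4 and Ppbp. Of these 7, 6 had a peak within 5 kb, with the shared peak counted for both Pf4 and Ppbp. Of all genes under 5 kb 44.9% did, and of those of 5 to 10 kb, where Cxcl15 (8.53 kb) falls, 73% did. In the cluster 3 of the 7 had one in the span, as did 31.7% of all genes under 5 kb and 64% of those of 5 to 10 kb. The most within 5 kb at any of the 7 was 3, at Cxcl3, which had 0 in the span. Cxcl5, a neutrophil attractant next to Ppbp, had none. The 100 kb on each side of Pf4 held 0.0750 peaks per kb, the lowest surroundings of the 9 genes together with those of Ppbp, which are largely the same sequence.

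Treml1 lies on chromosome 17 (48359916 to 48367176) among the TREM receptor genes. It had 2 peaks, both in the span: chr17:48360176-48360216, 280 bp after the start site, and chr17:48364808-48364904, 4940 bp after it. Of genes of 5 to 10 kb, 73% had a peak within 5 kb and 54.9% had more than 2. Treml1 had the fewest peaks of its cluster. Trem1, an activating receptor of neutrophils and monocytes, had 16 within 5 kb, Trem3 and Treml2 had 13 each, Treml4 had 9 and Trem2, a macrophage receptor, had 4. The 5 kb windows of Trem1 and Trem3 overlap, as do those of Trem3 and Treml4, so a peak there can count for more than 1 gene. In the span alone Trem1 had 11, Trem3 8, Treml2 7, Treml4 5, Trem2 3 and Treml1 2. The density of Treml1, 0.116 peaks per kb, stood beside 0.410 in the next 100 kb on each side, a ratio of 0.283 (exact interval 0.0337 to 1.05). This difference between the genes of the cluster was not tested.

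Compared with their own surroundings, the genes thus fell on both sides. The density with flanks was above that of the next 100 kb on each side at 6 genes and below it at 3 (Gp6, Vwf and Treml1). Pf4 and Ppbp, counted among the 6, rest on 1 shared peak and largely the same surroundings. For 7 of the 9 the exact interval of the ratio included 1, the exceptions being Gp5 above and Vwf below. Of the 78 peaks around Vwf, 45 lay within 5 kb of Cd9. These intervals too take each peak as independent. The ratios were 1.02 at Gp1ba, 1.01 at Gp9, 1.38 at Gp1bb, 1.22 at Pf4 and 1.15 at Ppbp.

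The sequence at the start sites themselves carried no peak. Promoter windows of 300 bases, from 250 before to 50 after the start site, were given for 8 members, all but Vwf, and 0 of the 8 overlapped a peak. Of the 21263 windows of protein-coding genes, 4.55% did, so none among 8 is near the background and says nothing particular of these genes. The windows of the members had few CG: a median of 3, from 0 at Gp5 to 8 at Gp1bb, against 13 for all windows, and 6 of the 8 had under 5, as did 28.4% of all windows. Of all windows with under 5 CG, 3.55% overlapped a peak, against 10.4% of those with 5 to 14 and 2.05% of those with 15 or more.

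Peaks did lie close to the start sites. All 8 start sites had a peak midpoint within 5 kb, as did 60.9% of the 21238 start sites of protein-coding genes, and 5 had one within 1 kb (Treml1, Gp5, Pf4, Gp1ba and Gp9), as did 27.5% of all. The nearest peak was downstream of the start site at 7 of the 8, the exception being Gp1bb. For Pf4 and Ppbp it was the same peak, so the 7 are not all separate peaks. Of the 12936 start sites with a peak within 5 kb, 51.9% had the nearest one downstream. Gp5 had peaks close by on both sides, 507 bp after and 549 bp before. Over all start sites the density fell from 0.236 peaks per kb at 500 to 750 bp upstream to 0.115 in the 250 bp before the start site. It was 0.115 at 250 to 500 bp downstream and rose to 0.280 at 1250 to 1500 bp downstream.

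**Figure D3:**
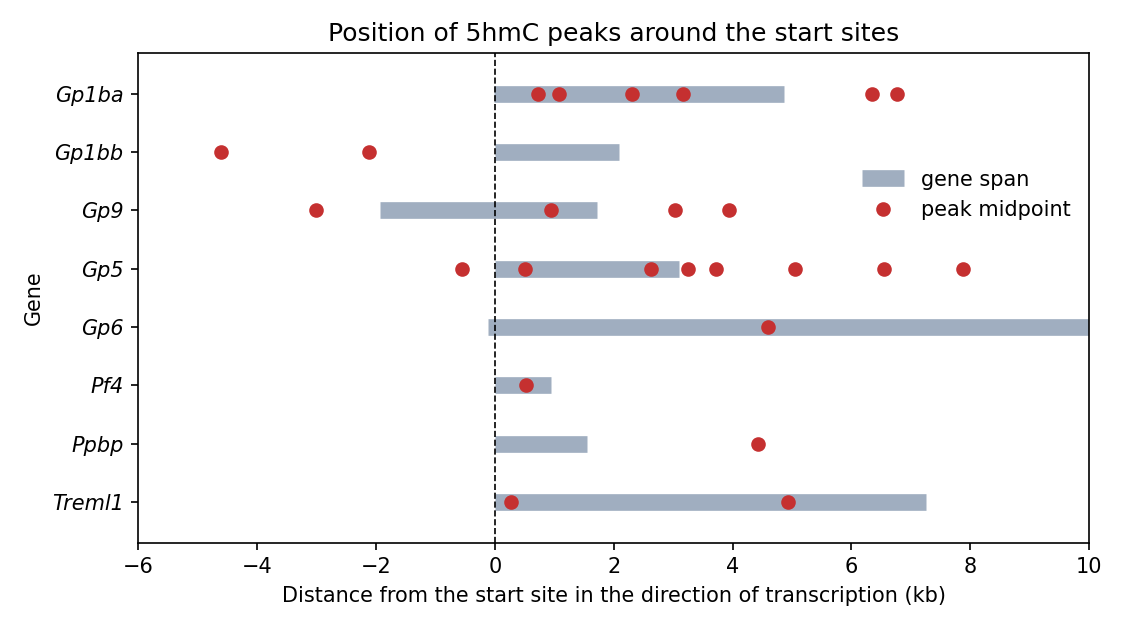
Peak midpoints (red) and gene spans (grey bars) of the 8 members with a start site, by distance from it in the direction of transcription in kb (horizontal axis), 1 gene per row. Of the 8 genes, 7 have the nearest peak to the right of the start site; both far peaks of Gp6, more than 31 kb away, lie outside the range drawn.

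**Figure D4:**
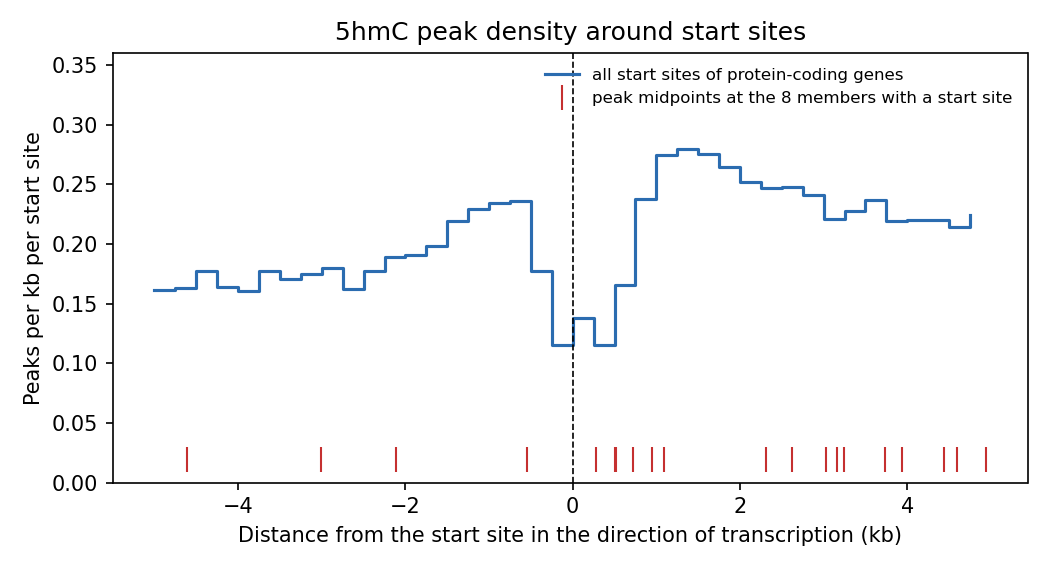
Peaks per kb per start site (vertical axis) by distance from the start site in kb (horizontal axis) in bins of 250 bp over the 21238 start sites of protein-coding genes, with the peak midpoints of the 8 members as ticks. The line dips to 0.115 at the start site and reaches 0.280 downstream of it.

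Motif letters were counted in the same windows on both strands, as a description of the sequence. GATAA occurred in 5 of the 8 windows (Gp1ba, Gp9, Gp5, Gp6 and Pf4) and in 22.5% of all windows of protein-coding genes. In the sequences printed above it begins 103 and 51 bases before the start site in Gp1ba, 43 bases in Gp9, and 93 and 77 bases in Gp5. GGAA, the core letters bound by ETS factors, occurred in all 8 and in 95.7% of all windows, and its longer form CCGGAAG, which contains it, in none of the 8 and in 11.6% of all. TGTGGT, bound by RUNX factors, occurred in the window of Gp9 and in 15% of all windows. A match is a run of letters, and no binding was measured.

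Other genes of platelet function were set beside them from lists arranged by role, 61 genes in all. Of these, 60 had a peak within 5 kb (73.1% of all protein-coding genes did), with a median of 12 peaks and 0.276 peaks per kb. The exception was Rab27b, a GTPase of granule release, with none over 163 kb. Most of the 61 genes span more than 10 kb, and longer genes had a peak more often. The share with a peak within 5 kb was 81.5% of all genes of 10 to 50 kb and 87.4% of those of 50 to 200 kb. The median density of the 9 members, 0.165 peaks per kb, lay below that of 5 of the 6 lists of more than 1 gene and above that of alpha granule cargo (0.151). Whether the lists differ was not tested.

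Genes that signal below Gp6 and the related receptor Clec1b had the highest median, 0.502 peaks per kb. The phospholipase gene Plcg2 had 102 peaks, and the kinase genes Fyn and Syk had 82 and 64. Fcer1g, the chain that carries the signal of Gp6, had 9 peaks in and around its 4.78 kb, or 0.609 per kb, so it was denser than Gp6 itself. The list was not uniform: Clec1b itself had 1 peak, or 0.0552 per kb, and the kinase gene Btk had 5, or 0.0975 per kb. Both lay below the median of all protein-coding genes, 0.106. Many genes of this list also act in other blood cells. Adhesion receptors and integrins had a median of 0.288, led by Pecam1 with 50 peaks, Itgb3 with 49 and Cd9 with 45. Itga2b, the platelet partner of Itgb3 in the fibrinogen receptor, had 6.

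Among receptors of soluble agonists and thromboxane synthesis the median was 0.250, led by the thromboxane synthase gene Tbxas1 with 97 peaks, the cyclooxygenase gene Ptgs1 with 20 and the ADP receptor gene P2ry12 with 14. Alpha granule cargo was led by Tgfb1 with 25 peaks, Srgn, a granule proteoglycan gene, with 24 and Selp, the P-selectin gene, with 18, and Mmrn1, which encodes the factor V carrier multimerin, had 1. Genes of granule and proplatelet formation had a median of 0.283, with 83 peaks at the myosin gene Myh9, 36 at Nbeal2, which is needed for alpha granules, and 14 at Flna. Transcription factors of megakaryocytes had a median of 0.289, with 188 at Runx1, 89 at Fli1 and 50 at Zfpm1. Adamts13, the protease that cuts von Willebrand factor, had 8.

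**Figure D5:**
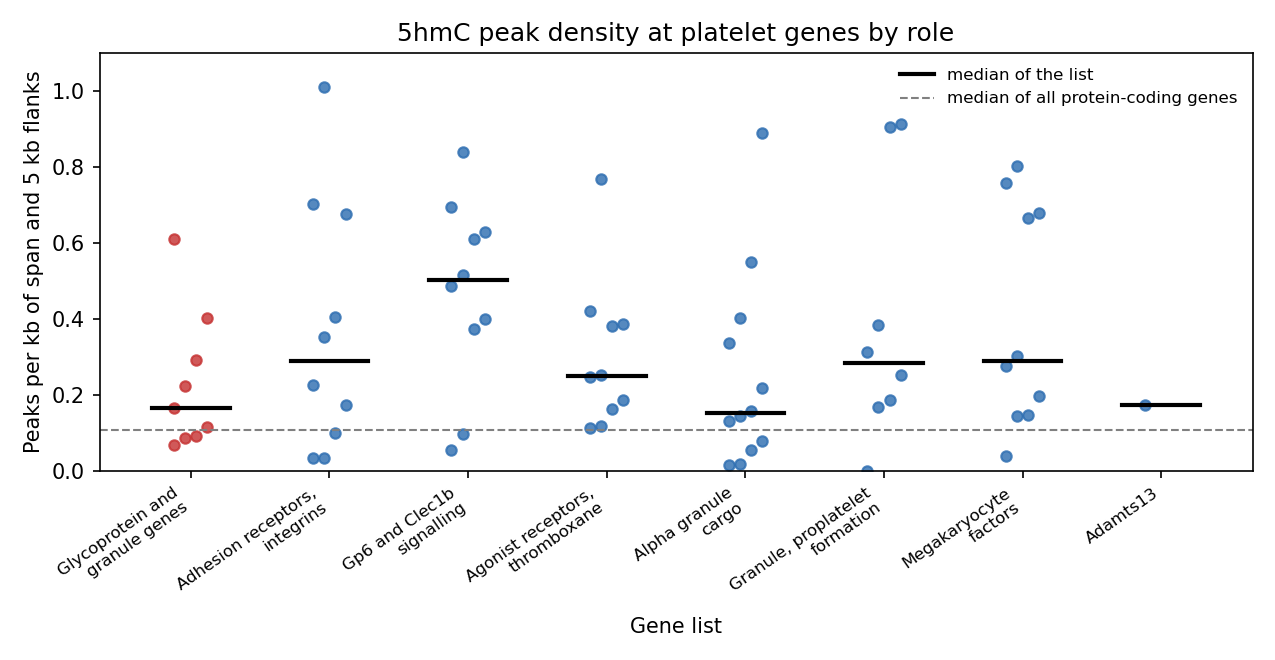
Peaks per kb of gene span and 5 kb flanks (vertical axis) for the 9 genes (red) and the companion lists by role (blue), 1 point per gene, with list medians as black lines and the median of all protein-coding genes dashed. The 9 genes have a median of 0.165 and the signalling genes one of 0.502.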

How the data were processed

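5hmC was tagged with glucose, coupled to biotin, captured and sequenced, per the labels' protocols. The authors called peaks with PICS, and the deposited positions are start and end columns on mm10 (build per the submitters' processing notes) with no other value. Per the file headers, reads were 99 bp, windows 250 bp moved by 20 bp, with at least 3 reads per window and 10 per region. The aligner and any score limit are not given in the sources used here, and read depth is unknown.

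Starts were converted to 1-based. Positions lie on steps of up to 8 bp at these genes, so widths and short distances are coarse. Of the lines, 14799 (6.63%) repeat an earlier one, and each interval was counted once. Genes came from a RefSeq table of GRCm38.p6, less 121 models with a start under 3000000 bp (Y excepted), 13 of them mitochondrial. Promoter windows came from RefSeq, and 8 of 9 members matched. Counting used Python 3.11.15, pandas 2.3.3 and SciPy 1.17.1, and was tested on simulated data. All members were named, with the 3 genes of most peaks and those of none in each companion list. Genes whose span holds a peak counted for a member, genes of a member's cluster and some, but not all, genes next to a member were also named. Itga2b, Fcer1g, Clec1b, Btk, Mmrn1 and the marker genes named were added after their values were seen. Members and lists were chosen with earlier results of these data known. Alternatives were other flanks, overlap, joined intervals and repeated lines. No list deposited under the normal marrow sample was analysed here.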

Additional observations from a re-analysis of the deposited data

How the results depend on the processing

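With flanks of 0, 2 and 10 kb the number of member genes with a peak was 7, 7 and 9, the number of distinct peaks 42, 51 and 72 and the median 0.274, 0.202 and 0.208 peaks per kb. Keeping repeated lines gave 62 peaks and a median of 0.223. Any overlap in place of the midpoint, or joining intervals closer than 200 bp, left 58 peaks and 0.165. Without Vwf, an alternative chosen after seeing the data, 26 peaks remained and the median was 0.141. Leaving out either leukaemia replicate gave 9 genes, 58 peaks and 0.165, because the lists are identical, and says nothing about stability. For single genes there were 72 values under these alternatives, including those with 1 of the identical lists left out, which could not move. Of the 72, 12 moved by more than 1.5 times. Among them were Gp5 (2 peaks in the span), Gp1ba (10 with 10 kb flanks) and Gp9 (8 with 10 kb flanks). Of the 61 companion genes, 60 had a peak with each flank. No paired analysis was possible because the groups share no replicate list. Depth and peak height are unknown, which limits every count.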

Other observations

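Marker genes of other cells in marrow gave a wide range of peak densities. The 8 neutrophil genes had a median of 0.685 peaks per kb of span and flanks, with 29 peaks at Ltf, the lactoferrin gene, and 16 at Ngp, a granule protein gene. The 4 B cell genes had a median of 0.529, with 13 peaks at Cd79a, and the 5 erythroid genes one of 0.272, with 8 at the factor gene Klf1. The 4 T cell genes had a median of 0.227, with 13 at the kinase gene Lck. The endothelial genes Cdh5 and Kdr, whose cells also make von Willebrand factor, had 15 and 9 peaks, and Tek and Emcn had none. These are values of 1 list without a test.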
